A study of Mus musculus with 15 samples.

Results

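The genes described here are the inducible heme oxygenase Hmox1 (NM_010442), the antioxidant enzymes Nqo1 (NM_008706), Srxn1 (NM_029688), Txnrd1 (NM_001042523), Gclc (NM_010295) and Gclm (NM_008129), and the metallothioneins Mt1 (NM_013602) and Mt2 (NM_008630). They were chosen by name, and 10 of the 41174 probes on the array measured these 8 of 18217 genes that could be named through a RefSeq transcript. Srxn1 had 3 probes and each other gene had 1, and the Mt1 probe was printed as 10 spots. All 10 probes were well above background on all 15 arrays, and no spot was saturated. The value of a gene is that of its brightest probe, unless another probe is named.

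Messenger RNA of mouse heart and liver was measured with 1-colour Agilent arrays, 3 for each of 5 groups. The heart allografts came from C57BL/10 donors, were placed in the abdomen of CBA recipients, which kept their own heart, and were taken at POD5 (post-operative day 5). The liver allografts came from B10.BR donors, replaced the liver of B10.D2 recipients, and were taken at POD5 or POD8. All animals were male, and no drug against rejection was given. Heart controls and liver controls are called normal tissue in one place and grafts between identical strains in another, so it is not settled whether they were operated on, and their strain was not given. The methods state 3 mice per time point for the PCR, and the array labels only number the samples of a group.

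Cells answer electrophilic and oxidative stress mainly through NRF2 (gene Nfe2l2), a transcription factor that KEAP1 holds in the cytoplasm and marks for degradation until its cysteines are modified. Freed NRF2 pairs with small MAF proteins on antioxidant response elements and raises enzymes that make glutathione, reduce thioredoxin and detoxify quinones, while BACH1 keeps Hmox1 off until heme releases it. Metallothioneins bind zinc and copper through many cysteines and are raised by the zinc sensor MTF1 on metal response elements, and also by glucocorticoids. Hmox1 breaks heme down to biliverdin, carbon monoxide and iron, and is made by macrophages that clear red cells, Kupffer cells of the liver among them.

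The metallothionein promoter windows are shown because Mt1 was lower in POD5 allografts of both organs where its neighbour Mt2 did not pass the test. The difference between Mt1 and Mt2 was not tested. The window of Srxn1 is shown because Srxn1 had the largest difference among the called members in the liver. Each window runs from 250 bases before to 50 after an annotated transcript start, on the strand of the gene, in GRCm38.p6 as given by RefSeq. Capitals in the metallothionein windows mark the core of a metal response element, TGCACNC or TGCGCNC on either strand. Capitals in the Srxn1 window mark the core of an antioxidant response element, TGACNNNGC on either strand.
Mt1 at chr8:94178839-94179138: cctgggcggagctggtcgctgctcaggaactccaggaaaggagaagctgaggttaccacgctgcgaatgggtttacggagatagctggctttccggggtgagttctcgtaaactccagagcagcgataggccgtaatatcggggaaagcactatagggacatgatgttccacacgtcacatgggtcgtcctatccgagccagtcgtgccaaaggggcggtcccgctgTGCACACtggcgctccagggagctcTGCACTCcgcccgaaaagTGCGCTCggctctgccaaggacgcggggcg
Mt2 at chr8:94172368-94172667: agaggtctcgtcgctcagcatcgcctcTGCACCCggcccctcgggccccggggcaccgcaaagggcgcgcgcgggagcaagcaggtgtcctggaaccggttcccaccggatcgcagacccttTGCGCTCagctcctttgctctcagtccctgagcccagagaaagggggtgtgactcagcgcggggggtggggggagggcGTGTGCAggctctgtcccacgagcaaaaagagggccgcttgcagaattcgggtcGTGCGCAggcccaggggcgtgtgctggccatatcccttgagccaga
Srxn1 at chr2:152105274-152105573: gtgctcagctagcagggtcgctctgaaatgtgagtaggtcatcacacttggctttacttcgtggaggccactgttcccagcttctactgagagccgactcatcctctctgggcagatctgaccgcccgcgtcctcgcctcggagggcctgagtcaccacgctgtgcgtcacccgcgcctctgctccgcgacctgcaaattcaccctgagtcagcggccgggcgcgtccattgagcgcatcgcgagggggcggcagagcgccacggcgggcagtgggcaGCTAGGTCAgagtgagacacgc

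The metal response core was found 3 times in the Mt1 window and 4 times in the Mt2 window. Of 32851 promoter windows of the same length, 25.7% held it at least once, 1.97% at least 3 times and 0.517% at least 4 times. The start that sets the Mt1 window lies 206 bases inside the first annotated base of the gene, so the window does not cover every start. The antioxidant response core was found once each in the windows of Srxn1, Gclm and Mt2 and in 1 of 3 Txnrd1 windows, and in 12.4% of all windows. It was not found in the Nqo1 window, which says only that these letters are absent from this window. The letters of an AP-1 site, TGACTCA on either strand, were found 2 times in the Srxn1 window and once in the Mt2 window, where they overlap the antioxidant response core, and in 5.2% of all windows. In the Gclm window 1 of 3 metal response cores overlaps the antioxidant response core. A match describes the letters and is not evidence that a factor binds there. Windows were at hand for 6 of the 8 genes, without Hmox1 and Gclc.

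**Figure D1:**
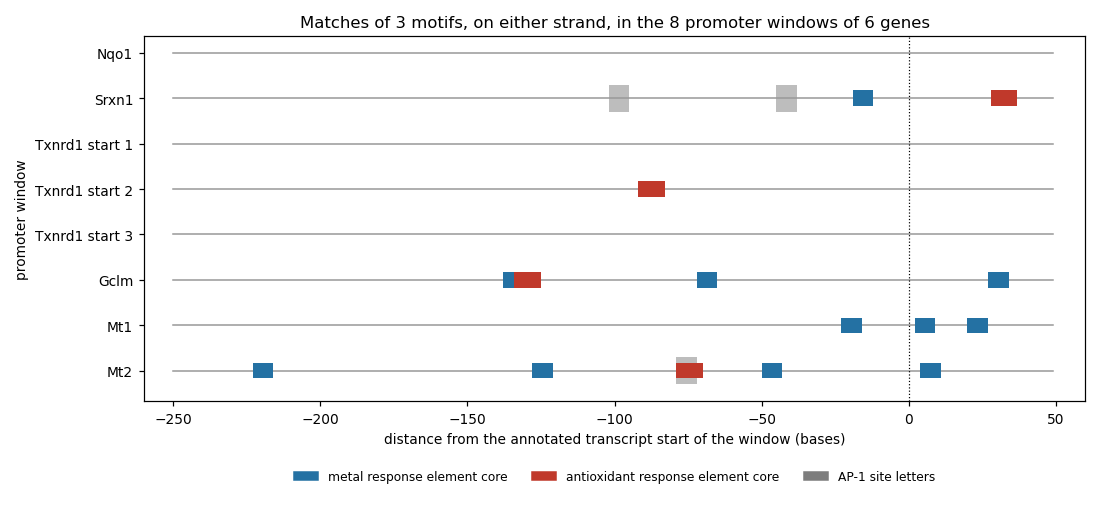
Positions of 3 motifs in 8 promoter windows of 6 genes; the horizontal axis is the distance in bases from the annotated transcript start of each window, and each row is a window. The 3 metal response cores of Mt1 lie between 23 bases before and 26 bases after the start, and those of Mt2 are spread over the window.

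The arrays differed in brightness with the groups. The 75th percentile of the processed signal was 394 to 711 on heart allograft arrays and 1021 to 1247 on heart control arrays. It was 338 to 478 on liver POD5 arrays, 384 to 454 on liver POD8 arrays and 92.1 to 226 on liver control arrays. Quantile normalization within an organ removed these differences, but scaling each array to its 75th percentile instead moved the median log2 difference of all probes from 0.02 to 0.47 in the heart, from -0.07 to -0.38 in the liver at POD5 and from -0.08 to -0.46 at POD8. With that scaling the share of called probes that were higher went from 49% to 74.2% in the heart, from 58.0% to 24.2% in the liver at POD5 and from 63.9% to 18.7% at POD8. Heart allografts and heart controls lay on separate slides, so slide and group cannot be told apart there. The tissue labels held: all 9 cardiomyocyte markers were above background on every heart array and all 8 measured hepatocyte markers on every liver array, and their summed signal in the other organ was 425 to 1330 and 116 to 1320 against at least 633000 and 408000 in their own. These are bulk tissues, in which fewer cells of a type and less RNA per cell cannot be told apart.

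Signals below are log2 values normalized within an organ, and a probe is called where the limma test gave a Benjamini-Hochberg adjusted p below 0.05 over all probes. In heart allografts at POD5, Gclm and Txnrd1 were higher than in heart controls and Mt1 was lower, while Hmox1, Nqo1, Srxn1, Gclc and Mt2 were not called. Of all 41025 probes, 31.5% were called, 15.4% higher and 16.1% lower, and the members' 2 higher and 1 lower of 8 stand beside that share. The groups did not overlap for 3 of the 8 genes, and for 54.6% of all probes.

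Txnrd1 encodes the cytosolic thioredoxin reductase, which keeps thioredoxin reduced with electrons from NADPH. Its log2 signal was 14.04, 12.83 and 13.73 in the 3 heart allografts and 12.52, 12.29 and 12.21 in the controls. All allografts lay above all controls, and allograft 2 lay closest to them. The difference was 1.19 (SE 0.33), or 2.29-fold, with an adjusted p of 0.046. The call was lost without allograft 1 (0.95, adjusted p = 0.095), without allograft 3 (1.11, adjusted p = 0.13) and without control 1 (1.29, adjusted p = 0.1), control 2 (1.17, adjusted p = 0.13) or control 3 (1.13, adjusted p = 0.14), and held without allograft 2 (1.51, adjusted p = 0.0043), by the same limma test.

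Gclm and Gclc are the modifier and catalytic subunits of glutamate-cysteine ligase, the rate-limiting enzyme of glutathione synthesis. Gclm was at 9.08, 8.75 and 8.69 in heart allografts and at 8.15, 8.15 and 8 in controls, without overlap. The difference was 0.74 (SE 0.13), or 1.67-fold, with a limma adjusted p of 0.014. Without control 3 it was 0.69 with an adjusted p of 0.057. Gclc was at 10.33, 9.62 and 10.21 against 10.31, 10.22 and 10.17, and the groups overlapped. Its difference was -0.18, with a 95% interval from -0.70 to 0.35. The difference between the subunits was not tested.

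Mt1 was at 13.98, 14.57 and 13.81 in heart allografts and at 15.54, 15.69 and 16.20 in controls. Every allograft was below every control, by 1.69 on the log2 scale between the means (SE 0.28), which is 3.22-fold lower with a limma adjusted p of 0.0099. The call held when each array was left out in turn, with differences from -1.87 to -1.50. Mt2 was at 16.21, 17.00 and 16.14 in allografts and 16.77, 16.78 and 17.10 in controls. The groups overlapped through allograft 2, and the difference of -0.43 had an interval from -1.11 to 0.25 and an adjusted p of 0.28. Without allograft 2 it was -0.71 with an adjusted p of 0.018. Cardiomyocyte and endothelial markers moved in the same direction as Mt1: 4 of 9 and 4 of 5 were called lower, none higher, with a summed signal of 633000 to 889000 against 995000 to 1160000 and of 5880 to 7390 against 13100 to 15400. Their part in the Mt1 result was not tested.

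Hmox1 was at 14.30, 14.27 and 14.04 in heart allografts and 14.69, 14.01 and 14.17 in heart controls, so the groups overlapped. The difference was -0.09 with an interval from -0.61 to 0.43. Nqo1, a quinone reductase, was at 12.75, 12.17 and 12.23 against 12.09, 12.71 and 12.24, a difference of 0.04 with an interval from -0.57 to 0.65. Srxn1, the enzyme that repairs over-oxidised peroxiredoxins, was at 12.79, 12.51 and 12.43 against 12.65, 12.31 and 12.43, and its 3 probes differed by 0.11, 0.18 and 0.36 with adjusted p of 0.6, 0.32 and 0.092 in the limma fit. Macrophage markers were mixed in the heart, with Fcgr1 and C1qa called higher and Mrc1 lower among 9, and a summed signal of 125000 to 152000 in allografts and 80500 to 117000 in controls. Their part in the Hmox1 values was not tested.

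**Figure D2:**
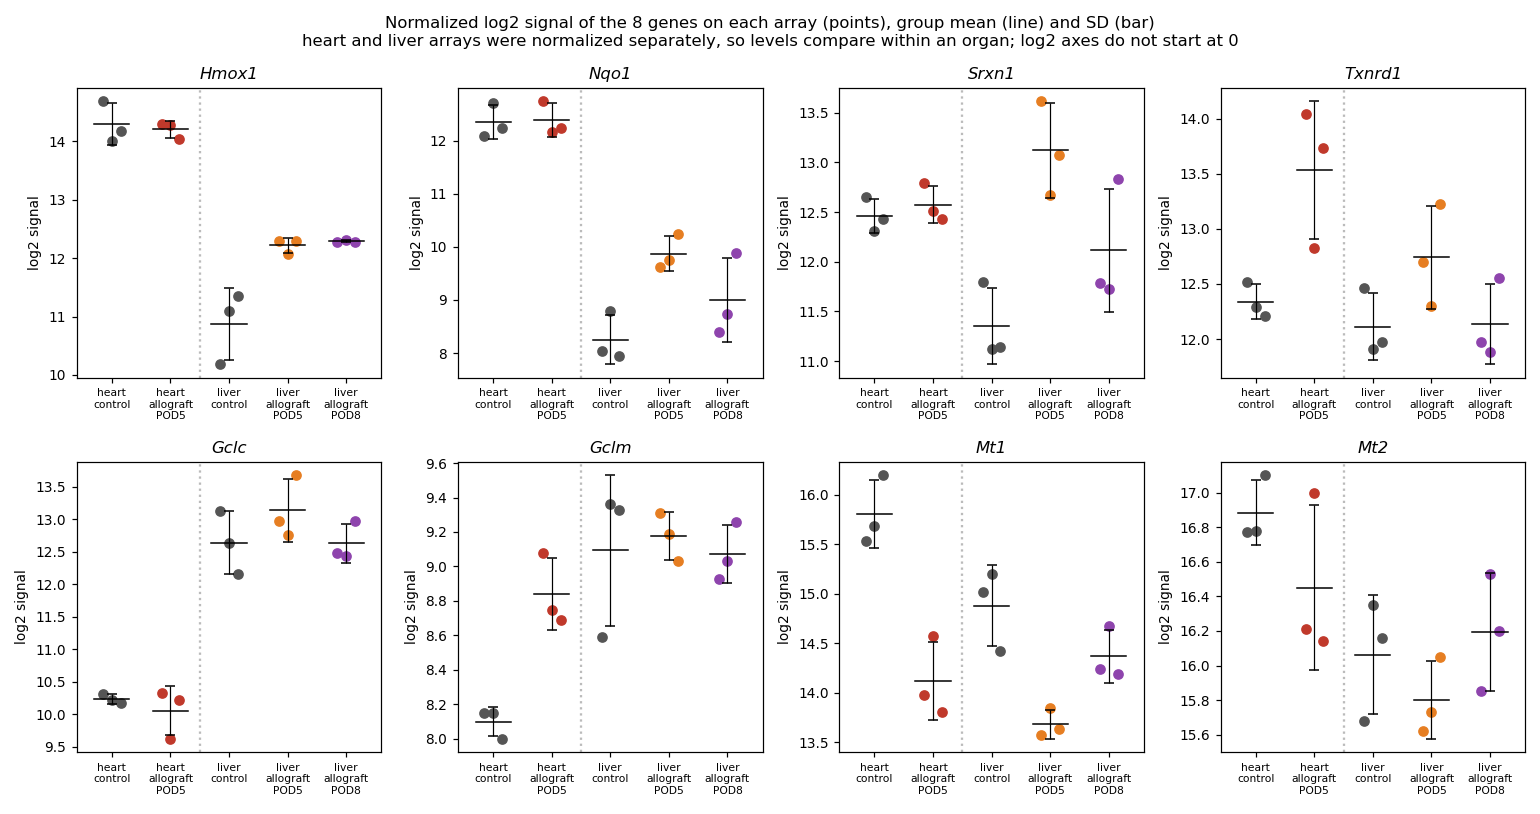
Normalized log2 signal of the 8 genes; each point is an array, the line is the mean of 3 and the bar its SD, with heart groups left and liver groups right of the dotted line. Hmox1 of all 6 liver allografts (12.07 to 12.31) lay above all 3 liver controls (10.18 to 11.35), while Mt1 was lower in heart allografts and in liver allografts at POD5.

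In liver allografts at POD5, Hmox1 and Srxn1 were higher than in liver controls and Mt1 was lower. Nqo1 had a large difference just outside the threshold, and Txnrd1, Gclc, Gclm and Mt2 were not called. Of all 41152 probes 9.90% were called, 5.74% higher and 4.16% lower, against 2 higher and 1 lower of the 8 members. The groups did not overlap for 4 of the 8 genes and for 31.2% of all probes. The members' median difference was 0.56, beside -0.07 over all probes.

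Hmox1 was at 12.29, 12.07 and 12.30 in liver allografts at POD5 and at 10.18, 11.09 and 11.35 in liver controls. The controls spread over more than a log2 unit and all lay below the allografts. The difference was 1.34 (SE 0.28), or 2.54-fold, with an interval from 0.70 to 1.99 and a limma adjusted p of 0.025. The lowest control was also the dimmest array, and without it the difference was 0.99 with an adjusted p of 0.0076. The call was lost without allograft 1 (1.32, adjusted p = 0.085), allograft 2 (1.43, adjusted p = 0.056) or allograft 3 (1.31, adjusted p = 0.07), and with slide as a random block (1.32, adjusted p = 0.078). No slide held both liver controls and POD5 allografts.

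Macrophage markers had a summed signal of 20300 to 23900 in POD5 liver allografts against 3950 to 15300 in liver controls, with 1 of 9 called (Fcgr1, 1.74 higher) and a median difference of 1.25. Kupffer cell markers summed to 78600 to 93400 against 20000 to 54700, with 1 of 6 called (Marco, 1.90 higher). T cell markers, of which 5 of 7 were called higher, summed to 4740 to 8050 against 246 to 327. All of the macrophage and Kupffer cell markers were above background on every allograft array of the liver. Their part in the Hmox1 difference was not tested.

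Srxn1 was at 13.62, 12.67 and 13.08 in POD5 liver allografts and at 11.80, 11.12 and 11.14 in controls, without overlap. The difference was 1.77 (SE 0.38), or 3.42-fold, with a limma adjusted p of 0.027. The other 2 probes of Srxn1, which were dimmer, gave 2.02 and 2.15 with adjusted p of 0.013 and 0.012. The call of the brightest probe was lost without allograft 1 (1.53, adjusted p = 0.09), allograft 3 (1.80, adjusted p = 0.069), control 2 (1.64, adjusted p = 0.073) or control 3 (1.66, adjusted p = 0.051), and with slide as a random block (1.63, adjusted p = 0.1).

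Nqo1 was at 9.63, 9.75 and 10.24 in POD5 liver allografts and at 8.03, 8.79 and 7.94 in controls, and the groups did not overlap. The difference of 1.62 (SE 0.42), or 3.08-fold, had a limma adjusted p of 0.051 and was not called. It was called with 75th percentile scaling (1.57, adjusted p = 0.038), with dim probes left out (adjusted p = 0.024) and in 1 fit of all 5 groups (1.60, adjusted p = 0.013). It stayed uncalled in 9 of 13 alternatives and with any 1 array left out. Txnrd1 was at 12.70, 12.30 and 13.23 against 12.46, 11.91 and 11.97, and its difference of 0.63 had an interval from -0.06 to 1.31. Gclc was at 12.97, 12.76 and 13.68 against 13.13, 12.64 and 12.16, a difference of 0.50 with an interval from -0.27 to 1.26. Gclm was at 9.31, 9.19 and 9.03 against 8.59, 9.36 and 9.33, a difference of 0.08 with an interval from -0.44 to 0.60. The allografts overlapped the controls for each of these last 3 genes.

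Mt1 was at 13.57, 13.85 and 13.63 in POD5 liver allografts and at 15.02, 15.20 and 14.42 in controls. The allografts again lay below all controls, by 1.20 on the log2 scale between the means (SE 0.23), or 2.29-fold lower, with a limma adjusted p of 0.02. With 75th percentile scaling it was 1.70 lower, and 1.32 lower once the median of all probes was taken off. The call was lost without allograft 1 (-1.15, adjusted p = 0.073), allograft 3 (-1.18, adjusted p = 0.058), control 1 (-1.12, adjusted p = 0.051) or control 2 (-1.03, adjusted p = 0.051), and with slide as a random block (-1.14, adjusted p = 0.052). Mt2 was at 15.62, 15.73 and 16.05 against 15.68, 16.35 and 16.16, overlapped, and differed by -0.26 with an interval from -0.82 to 0.30. With 75th percentile scaling Mt2 stood at -0.89 and was not called. Once the median of all probes was taken off, it stood at -0.51 with that scaling. Of 8 hepatocyte markers, 0 were called by limma and 1 had an unadjusted p below 0.05, and their summed signal was 431000 to 444000 in allografts and 447000 to 466000 in controls.

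At POD8, 1 of the 8 genes was called in the liver allografts against liver controls, Hmox1, which was higher. Of all 41152 probes, 7.83% were called. The groups did not overlap for 1 of the 8 genes, and for 31.4% of all probes. Hmox1 was at 12.28, 12.31 and 12.28, a narrower spread than in any other group, and the controls were those of the POD5 comparison. The difference was 1.41 (SE 0.28), or 2.66-fold, with a limma adjusted p of 0.024. On the slide that held allografts 1 and 2 and controls 1 and 2 it was 1.65, with an adjusted p of 0.16, and 0 of 41152 probes were called by limma there. With slide as a random block it was 1.48 with an adjusted p of 0.014. The call was lost without allograft 1 (1.42, adjusted p = 0.086), allograft 2 (1.41, adjusted p = 0.092) or allograft 3 (1.42, adjusted p = 0.069), and without the dimmest control it was 1.06 with an adjusted p of 0.0064. Macrophage markers summed to 28400 to 33100 in these allografts against 3950 to 15300 in controls. Kupffer cell markers summed to 95500 to 119000 against 20000 to 54700. Fcgr1 and Marco were again the called ones. In the limma fit 8 of 9 macrophage and 4 of 6 Kupffer cell markers had an unadjusted p below 0.05. The median differences of these lists were 1.82 and 1.25. Their part in the Hmox1 difference was not tested.

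The other members at POD8 had differences between -0.51 and 0.77, and none was called. Srxn1 was at 11.79, 11.73 and 12.83, so that allograft 3 lay near the POD5 level and the other 2 among the controls. Its difference was 0.77 with an interval from -0.11 to 1.64. The dimmer probes of Srxn1 gave 0.74 and 0.94 with limma adjusted p of 0.25 and 0.17, and on both all POD8 allografts lay above all controls. Nqo1 showed the same array apart, at 8.39, 8.73 and 9.89, with a difference of 0.75 and an interval from -0.22 to 1.72. Txnrd1 was at 11.97, 11.88 and 12.55 and Gclc at 12.48, 12.43 and 12.98, with allograft 3 the highest for both, and Gclm was at 8.93, 9.03 and 9.26. Allograft 3 was thus the highest of the 3 for 5 of the members, and it was the only POD8 array on its slide. Mt1 was at 14.24, 14.68 and 14.19, a difference of -0.51 with an interval from -1.05 to 0.03. With 75th percentile scaling it was called lower by limma (-0.99, adjusted p = 0.038). Once the median of all probes was taken off, Mt1 stood at -0.53 with that scaling and at -0.43 in the main fit. Mt2 was at 15.85, 16.53 and 16.20, within the range of the controls but for allograft 2.

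Compared directly, POD8 and POD5 liver allografts gave no call among the 8 genes, and 3 of 41152 probes, or 0.00729%, by limma. No slide held liver allografts of both times, so slide and day cannot be told apart in this comparison. At an unadjusted p below 0.05 there were 3251 probes, Srxn1 and Mt1 among them. Srxn1 differed by -1.01 (unadjusted p = 0.03, adjusted p = 0.59 in the limma fit), and its other 2 probes by -1.28 and -1.21. Mt1 differed by 0.69 (unadjusted p = 0.019, adjusted p = 0.57 in the limma fit), with all POD8 values above all POD5 values. Of all probes, 19.7% did not overlap between these groups. Hmox1 differed by 0.07, with an interval from -0.58 to 0.72. The standardized fold change (SFC) of the methods compares each difference with those of 1000 probes of like brightness. It called Srxn1 alone among the 8 genes (-1.29, Bonferroni adjusted p = 0.012), and 232 of 41152 probes in all. SFC works on group medians and does not measure the spread within a group. On this probe of Srxn1 the groups overlapped, with POD8 allograft 3 at 12.83 and POD5 allograft 2 at 12.67. On its other 2 probes they did not overlap.

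**Figure D3:**
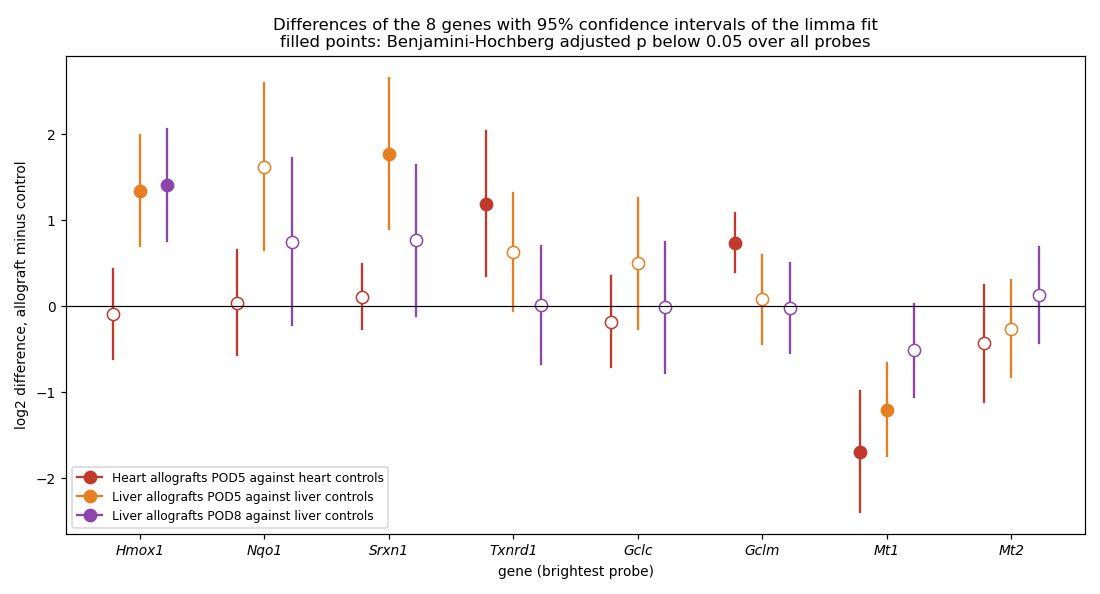
Log2 difference of each gene between allografts and controls of the same organ, with the 95% interval of the limma fit as a bar; filled points passed an adjusted p of 0.05. Hmox1 stands at 1.34 and 1.41 in the liver and at -0.09 in the heart, and Mt1 is below 0 in all 3 comparisons.

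Whether the heart and the liver differed in their change at POD5 was tested as an interaction on all 15 arrays normalized together. Strain pair and graft placement differed with the organ, and heart allografts and heart controls lay on separate slides. These cannot be told apart from the organ in this test. Of 41003 probes, 18.0% were called, 8.53% with a higher change in the heart and 9.48% with a lower one. Hmox1 and Srxn1 were called among the 8 genes, both with a lower change in the heart. The change of Hmox1 in the heart minus that in the liver was -1.39 on the log2 scale (SE 0.37, limma adjusted p = 0.023), and that of Srxn1 was -1.59 (SE 0.44, limma adjusted p = 0.027), with the other Srxn1 probes at -1.82 and -1.76. Both calls were lost with slide as a random block (Hmox1 -1.39, adjusted p = 0.058; Srxn1 -1.49, adjusted p = 0.08), without heart allograft 3 (Hmox1 -1.32, adjusted p = 0.052; Srxn1 -1.52, adjusted p = 0.059) and without heart control 1 (Hmox1 -1.19, adjusted p = 0.055; Srxn1 -1.50, adjusted p = 0.065). That of Srxn1 was also lost without heart control 3 (-1.62, adjusted p = 0.056), liver allograft 1 at POD5 (-1.35, adjusted p = 0.061) or liver control 2 (-1.47, adjusted p = 0.052).

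Nqo1 lay at -1.56 in the same limma test with an adjusted p of 0.058, and was called with 75th percentile scaling (-1.55, adjusted p = 0.029), with normexp (-1.49, adjusted p = 0.044) with dim probes left out (adjusted p = 0.041) and without liver control 2 (-1.81, adjusted p = 0.036). Gclm lay at 0.67 with an adjusted p of 0.12, and was called without liver control 1 (0.91, adjusted p = 0.013). The other genes were not called, with Txnrd1 at 0.66 with 0.34, Gclc at -0.66 with 0.28, Mt1 at -0.59 with 0.29 and Mt2 at -0.27 with 0.67. Neither the Txnrd1 and Gclm calls of the heart nor the Mt1 calls of both organs were shown to differ between organs by this test with all arrays. Among 9 macrophage markers 1 had a lower change in the heart, Mrc1 (-3.66), and 0 a higher one, beside 9.48% of all probes lower. Of 6 Kupffer cell markers 3 had a lower change, Cd5l (-5.03), Vsig4 (-4.27) and Clec1b (-3.31), and 0 a higher one. The part of these markers in the Hmox1 difference was not tested.

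The levels in the controls differed between the organs. Heart controls and liver controls lay on separate slides and their strain was not given, so slide, strain and organ cannot be told apart here. With all 15 arrays normalized together, Hmox1 was at 13.64 ± 0.37 (SD, n = 3) in heart controls and 11.38 ± 0.60 in liver controls, a difference of 2.25. Its order over the groups ran from heart controls and heart allografts (13.54 ± 0.14), which did not differ beyond their spread, to liver allografts at POD8 (12.74 ± 0.02) and POD5 (12.68 ± 0.13), which also did not, and to liver controls. Nqo1 was higher in heart controls by 2.77, and Gclc and Gclm were lower by 3.69 and 2.41, all called by limma. Among the 8 genes 2 were called higher and 3 lower in heart controls, where 54.0% of 41003 probes were called, 27.5% higher and 26.4% lower. These 4 kept their direction and call under each of the 3 scalings. Txnrd1 was 1 log2 unit lower in heart controls but 0.22 higher with each organ normalized by itself. Srxn1, Mt1 and Mt2 changed sign with the scaling or the probe and have no settled order between the organs.

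The partners of these genes were followed in lists named by function. Beside the list counts below, 5.74% of all probes were higher and 4.16% lower in the liver at POD5, and 7.83% were called at POD8. For the change between organs 8.53% were higher and 9.48% lower. Of the called list genes that the naming rule picks, 15 of 31 in the heart, 10 of 19 in the liver at POD5, 4 of 14 at POD8 and 13 of 19 for the change between organs were called with each array left out in turn. Of 9 measured NRF2 regulators, 0 were called in the heart by limma, 3 with an unadjusted p below 0.05, and 1 was called in the liver at POD5, Nfe2l2 itself, which was 0.67 higher (SE 0.16, adjusted p = 0.042), 1.59-fold. Nfe2l2 was not called with 75th percentile scaling (0.41, adjusted p = 0.21) or slide as a random block (0.66, adjusted p = 0.092), nor without allograft 1 (0.66, adjusted p = 0.12), allograft 3 (0.56, adjusted p = 0.095), control 1 (0.58, adjusted p = 0.093) or control 2 (0.67, adjusted p = 0.092). Keap1, Bach1, Maff and Mafg were not called, at 0.43, -0.42, 0.24 and 0.43 in the heart and 0.23, -0.78, 0.32 and -0.41 in the liver at POD5. Mtf1, the zinc sensor, was at -0.39 in the heart and -0.08 in the liver. The medians of the list were 0.29 in both comparisons.

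NRF2 target enzymes other than the members gave 9 higher and 0 lower of 22 in the liver at POD5, with a median of 0.67, against 5.74% higher among all probes. They were Cbr3, a carbonyl reductase (2.98, 7.89-fold), the glutathione-conjugate exporter Abcc1 (2.03) and its relative Abcc4 (1.78), Pgd and G6pdx (1.81 and 1.59) and Taldo1 (0.52) of the pentose phosphate pathway that supplies NADPH, the glutathione transferase Gstm1 (1.11), thioredoxin Txn1 (1) and the ferritin heavy chain Fth1 (0.64). Cbr3 lost its call with slide as a random block (2.64, adjusted p = 0.098) and when any 1 array but control 3 was left out (2.64 to 3.30). Fth1 turned to -0.36 with 75th percentile scaling. That scaling gave 5 higher and 1 lower, slide as a random block gave 5 higher, and without allograft 1 there were 4. The methods' t-test called 0 of the 22 and SFC 1, where they called 225 and 364 of all 41152 probes. Slc7a11, the cystine carrier, was at 1.66 with an adjusted p of 0.078 and was not called. At POD8, 3 of the 22 were higher, Abcc1 (1.81), Abcc4 (1.62) and G6pdx (1.44), and without allograft 1, allograft 2 or allograft 3 there was 1.

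In the heart 4 of the 22 were higher and 3 lower, with a median of 0.10, where 15.4% of all probes were higher and 16.1% lower, so these counts lie near that share. Blvrb, the biliverdin reductase B (1.23), Pgd (1.1), the transketolase Tkt (0.95) and Osgin1 (0.83) were higher, while Gstm1 (-1.53), the malic enzyme Me1 (-1.09) and Gsta4 (-0.72) were lower. Without allograft 3 or control 3, 1 was higher and 1 lower, without control 1, 3 and 1, and without control 2, 2 and 1. In the test of the organs against each other, Osgin1 had a higher change in the heart (2.08), and 6 of the 22 had a lower one, led by Cbr3 (-3.26), Slc7a11 (-2.55), Gstm1 (-2.45) and Abcc1 (-1.58).

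Of 22 heme and iron genes, 2 rose and 5 fell in the heart, near the 15.4% and 16.1% of all probes. The haemoglobin-haptoglobin receptor Cd163 of tissue macrophages fell by 4.45 on the log2 scale, or 21.8-fold, the iron exporter Slc40a1 fell by 2.62, and transferrin (Trf) and the heme synthesis enzyme Urod fell by 1.43 and 0.65. Slc11a1, a metal carrier of phagocytes, and Blvrb rose by 2.25 and 1.23. Of 6 Kupffer cell markers 4 were lower and 0 higher in the same comparison, with a median of -1.93. Their summed signal overlapped, at 2600 to 14400 in allografts and 2400 to 8670 in controls. The summed signal of 6 erythroid markers was 213000 to 342000 in allografts against 343000 to 527000 in controls. The part of both lists was not tested. In the liver at POD5 4 of 22 rose, Spic (1.80), the transcription factor of heme-clearing macrophages, the heme exporter Flvcr1 (0.83), Fth1 and the transferrin receptor Tfrc (0.53), and the receptors Cd163 and Lrp1 fell by 1.56 and 1.01. At POD8 Slc11a1 (2.40), Spic (2.30) and Tfrc (0.59) rose and Lrp1 and Urod fell by 0.66 and 0.49. The constitutive Hmox2 was not called in these comparisons, at -0.23 in the heart and 0.05 and 0.04 in the liver, and neither was Blvra, at -0.24, 0.48 and 0.34. In the liver at POD5 the counts were 1 higher and 1 lower without allograft 1 or allograft 3 and 2 and 1 without control 2, and at POD8 they were 1 and 0 without any 1 of the 3 allografts or without control 2. In the heart they were 1 and 3 without allograft 3, control 2 or control 3, and 4 and 7 without allograft 2.

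Among 17 genes of zinc and copper handling, 3 were higher and 3 lower in the heart, near the 15.4% and 16.1% of all probes. The copper pump Atp7b (2.06), the zinc carrier Slc30a7 (1.09) and the copper importer Slc31a1 (1.05) were higher, and the zinc importers Slc39a8 (-2.73) and Slc39a14 (-0.31) and the zinc exporter Slc30a1 (-0.67), itself a target of MTF1, were lower. The call of Slc39a14 lay at the threshold (limma adjusted p = 0.05 after rounding) and was lost when any 1 array was left out. In the liver, Atp7a was higher (0.70 at POD5 and 0.94 at POD8) and Ccs, the copper chaperone of superoxide dismutase, was lower (-0.48 and -0.60), and the other 15 were not called at either time. In the heart 0 were lower without control 3, and 1 without allograft 1, allograft 3, control 1 or control 2, and Ccs lost its call without any 1 allograft of the same time, and at POD5 also without control 1 or control 2.

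Superoxide and peroxide removal gave 4 higher and 6 lower of 25 in the heart, beside 15.4% and 16.1% of all probes. Glutaredoxin Glrx (1.83), peroxiredoxin Prdx5 (1.02), Sesn2 (0.96) and extracellular superoxide dismutase Sod3 (0.81) were higher, and Gpx3 (-1.57), Sesn1 (-1.36), Selenop (-0.87) and the mitochondrial Prdx3 (-0.81) were among the lower. The counts were 2 and 2 without control 3, 2 and 3 without allograft 3, and 2 and 4 without control 1 or control 2. In the liver 1 of 25 was called at POD5, Txn1, and 0 at POD8 by limma, where 4 had an unadjusted p below 0.05, with medians of 0.00 and 0.06.

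Subunits of the phagocyte NADPH oxidase, which makes superoxide, rose in both organs. In the heart 5 of 9 were higher, with Ncf4 (2.07), Rac2 (1.88), Cyba (1.62) and Cybb (1.45) leading, beside 15.4% of all probes. There 1 was lower, Nox4 (-1.66), the form found outside phagocytes, beside 16.1% of all probes. In the liver 5 of 9 were higher at each time, among them Rac2 (2.63 and 2.24), Cybb (2.60 and 2.40) and Cyba (2.35 and 2.32), and Nox4 was lower at POD5 (-1.48). Among all 41152 probes, 5.74% were higher and 4.16% lower at POD5, and 2058 were higher at POD8. Without heart control 3 the heart counts were 2 and 0, and at POD8 2 were higher without allograft 1 or allograft 2 and 3 without allograft 3. Beside these genes, macrophage markers were mixed in the heart (median 0.12), and neutrophil markers gave 1 higher and 2 lower of 9, with a summed signal of 13900 to 53500 in allografts against 53800 to 85300 in controls. All 7 T cell markers were higher in the heart, at 17200 to 25600 against 739 to 1110. In the liver neutrophil markers gave 0 higher and 2 lower of 9 at POD5 and 1 higher at POD8. Their part was not tested.

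In the test of the organs against each other, 0 of the 22 heme and iron genes had a higher change in the heart and 4 a lower one, Slc40a1 (-3.18), Cd163 (-2.92), Trf (-1.80) and Spic (-1.74). Of the zinc and copper genes, Atp7b (2.27) and Ccs (0.55) had a higher change in the heart and Slc39a8 (-2.39) a lower one. Of the peroxide genes, Sesn2 (1.53) and Prdx5 (1.06) had a higher change, and Gpx7 (-1.66), Sesn1 (-1.32), Prdx3 (-1.1) and Selenop (-0.96) a lower one. Of the 9 NADPH oxidase genes 0 had a higher change and 1 a lower one.

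**Figure D4:**
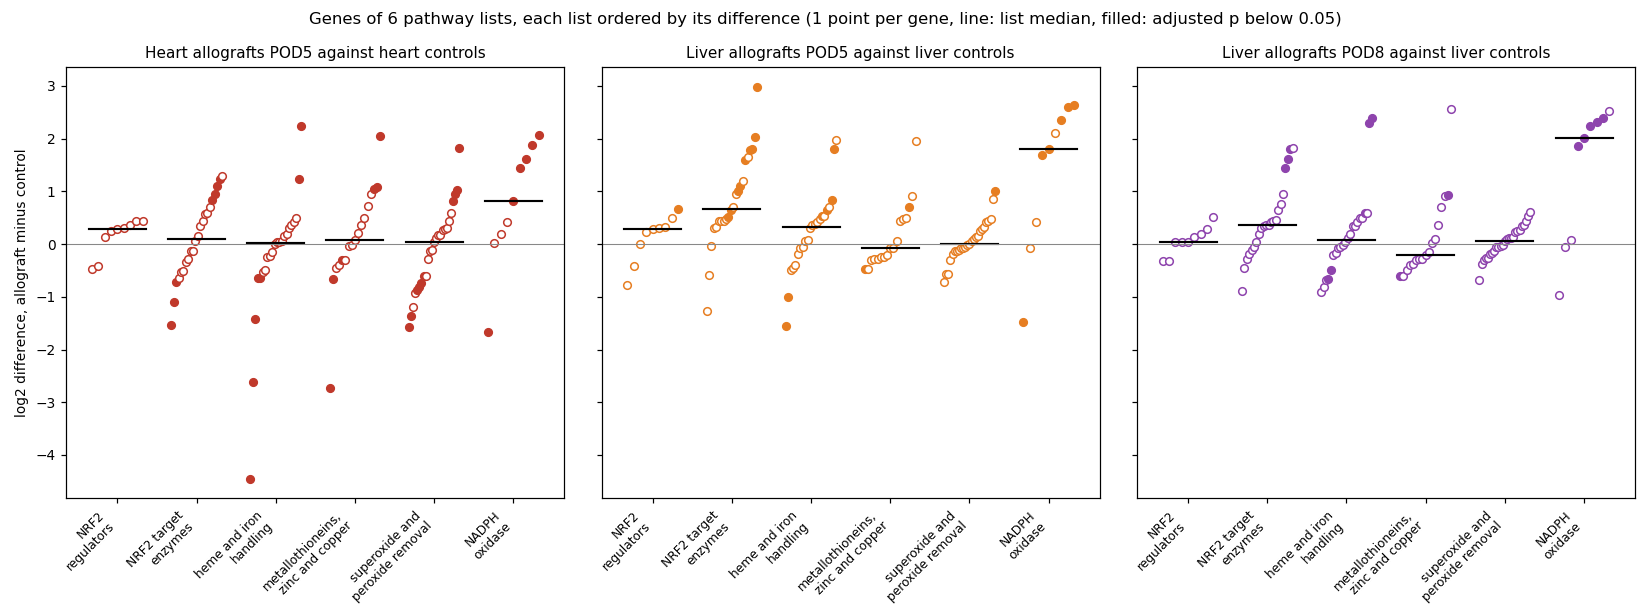
Log2 difference between allografts and controls for each gene of 6 lists in the 3 comparisons; points are genes in order of their difference, the line is the median of the list and filled points passed an adjusted p of 0.05. The NRF2 target enzymes have 9 filled points above 0 and none below in the liver at POD5, and 4 above and 3 below in the heart.

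Over the 15 arrays normalized together, the genes most like Hmox1 among 13626 by Pearson correlation were Mdfic (r = 0.979), Glipr1 (0.978) and Evi2a (0.976). Srxn1 was most like the glutathione transferase Gsta2 (0.932). Txnrd1 was most like BC005537 (0.982), Gclc most like Errfi1 (0.990) and Gclm most like Olfr1225 (0.988), while Nqo1 was most like Impdh1 (0.957). The metallothioneins had lower values, with Ctdspl for Mt1 (0.926) and Alg14 for Mt2 (0.855). These are descriptions over 15 arrays of 2 organs, in which the difference between heart and liver carries much of each correlation.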

How the data were processed

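Total RNA of 15 samples was labelled for 1-colour Agilent mouse arrays. The deposited files hold, per the file headers, spot intensity from Agilent Feature Extraction 10.5.1.1; the authors' processed signal is background-subtracted and on a linear intensity scale. Spots marked as outliers were left out, spots of a probe averaged as log2 intensity, and arrays quantile normalized within an organ (15 arrays for the tests between organs). Groups came from the labels. Differences were tested with limma 3.58.1 in R 4.3.3 (lmFit, eBayes), fitted on all probes, 6 heart or 9 liver arrays, Benjamini-Hochberg adjusted over all probes and called below 0.05; the fit was tested on simulated data. SE and 95% intervals come from that fit. The number of arrays, 3 per group, limits the precision. Probes were named through RefSeq transcripts of GRCm38.p6 (26690 of 41174, 64.8%). The array design names mm9.

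All members were reported. From lists, up to 4 called genes per direction with the largest difference were named, beside the regulators Nfe2l2, Keap1, Bach1, Maff, Mafg and Mtf1, Hmox2, Blvra, Blvrb and Slc7a11, and per member the 3 genes of highest correlation among those above background on at least 9 arrays. The remaining NRF2 targets of the liver at POD5 were named after their values were seen. The members and lists were chosen with earlier results of these data known. Bach2, Sepp1, Duox2, Cd68, Hbb-bs and Cps1 matched no probe. Some genes that this rule would name are not reported here.

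Alternatives were other scalings, normexp background correction (offset 50), a filter on dim probes, any probe of a gene, another prior, replicate and slide blocks, the methods' t-test, the standardized fold change of the study (SFC, bin size 1000), outlier spots kept, and each array left out. The fit of all 5 groups was added after the data were seen. Figures were drawn with matplotlib 3.10.9.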

Additional observations from a re-analysis of the deposited data

Results flagged for a closer look

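The change from control to allograft at POD5 differed between heart and liver for 2 of the 8 genes by the interaction test of limma. By the same test 18.0% of 41003 probes were called. Both member calls were lost with slide as a random block, and strain pair, graft placement and slide cannot be told apart from organ here. The change of Hmox1 was lower in the heart (-1.39 on the log2 scale), at -0.09 in the heart and 1.34 in the liver where each organ was fitted by itself. The change of Srxn1 was lower in the heart as well (-1.59), at 0.11 against 1.77. With all arrays normalized together, the Hmox1 signal was 13.64 in heart controls, above the mean of each liver group.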

How the results depend on the processing

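Of the called member results, Mt1 in the heart kept its call under each alternative but SFC. Gclm in the heart lost its call only with SFC and without control 3. Between controls, where SFC was not run, Hmox1, Nqo1, Gclc and Gclm kept their calls under each alternative. SFC called none of the 8 genes in the heart (main result 3), in the liver at POD5 (3) or at POD8 (1), and 1 between POD8 and POD5 (0). In the liver at POD5 the count was also 0 with the 6 arrays of the phase alone, with slide as a random block and by the methods' t-test. At POD8 it was 2 with 75th percentile scaling and 0 with the 6 arrays of the phase alone, within the shared slide, by the methods' t-test and with the replicate block. Between organs it was 0 with slide as a random block (main result 2). With 1 array left out the counts ran from 1 to 4 in the heart, 0 to 2 in the liver at POD5, 0 to 1 at POD8, 0 to 0 between the times, 0 to 3 for the change between organs and 4 to 5 for the controls. Replicate numbers did not pair the samples (correlations of deviations -0.14 to 0.05): with the replicate block, Txnrd1 in the heart (1.19, adjusted p = 0.067) and Hmox1 in the liver (1.34, adjusted p = 0.052 at POD5; 1.41, adjusted p = 0.056 at POD8) lost their calls, and no other member call changed. No slide block could be fitted in the heart.

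Values that changed sign were none of the called members but Txnrd1 between controls. In the heart, Hmox1 was 0.16 with normexp and 0.10 with SFC, and Nqo1 -0.13 and -0.01. In the liver at POD5, Gclm was -0.14 with SFC and Fth1 -0.36 with 75th percentile scaling. At POD8, Txnrd1 was -0.27 with that scaling, -0.27 within the slide, -0.07 with the slide block and 0.00 with SFC, Mt2 was -0.49 with that scaling and Gclm 0.01 within the slide. Between times, Hmox1 was -0.07 with normexp and 0.00 with SFC. Between organs, Mt1 and Mt2 were 0.10 and 0.57 with 75th percentile scaling. Between controls, Srxn1 was 1.11 and Mt1 0.93 with organs normalized separately, Txnrd1 0.22, Srxn1 1.30 by any probe, Mt1 0.00 with the slide block and Mt2 -1.06 with 75th percentile scaling. With 1 array left out, uncalled values crossed 0: in the heart Hmox1 (-0.23 to 0.11), Nqo1 (-0.14 to 0.22) and Gclc (-0.32 to 0.04); in the liver at POD5 Gclm (-0.17 to 0.21); at POD8 Txnrd1 (-0.20 to 0.19), Gclc (-0.25 to 0.23), Gclm (-0.27 to 0.11) and Mt2 (-0.06 to 0.31); between times Hmox1 (-0.01 to 0.11); between controls Srxn1 (-0.24 to 0.08), Mt1 (-0.27 to 0.11) and Mt2 (-0.12 to 0.16). The causes were not tested.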
